A study of Mus musculus with 21 samples.

Results

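Integrin subunits of T cell adhesion and tissue residency were followed in RNA of cultured mouse CD8 T cells under acute and repeated stimulation. The genes were taken by name, with no measured value in the rule, though earlier results of these data were known. They were Itgae, Itga1, Itga4, Itgb1, Itgb7, Itgal, Itgb2, Itgam, Itgax and Itgav. All 10 were found among the 13202 genes of the deposited table, whose values are RPKM, reads scaled to the length of the gene and to the size of the library. RPKM is scaled to gene length, so levels of different subunits are compared below on this scale.

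An integrin is a pair of an α and a β chain at the cell surface, and it holds ligands tightly only after signals from inside the cell have changed its shape. αL with β2 (LFA-1) binds ICAMs and holds a T cell to antigen-presenting and target cells, α4 with β1 binds VCAM-1 on inflamed vessels and fibronectin, and α4 with β7 binds MAdCAM-1 on gut vessels. αE with β7 (CD103) binds E-cadherin on epithelia and α1 with β1 binds collagen IV, and both are known as markers of CD8 T cells that stay resident in tissue.

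The 21 RNA-seq libraries of poly(A) RNA fell into 7 groups of 3, in 3 experiments, all of T cells that a negative selection kit isolated out of spleen and inguinal lymph nodes, harvested at day 8. Polyclonal acute and polyclonal chronic cells came from C57BL/6 mice and were activated with plate-bound anti-CD3 and with anti-CD28 for 48 h in interleukin 2. Acute cells then had no more anti-CD3, and chronic cells had it again every 48 h. OT-I acute and OT-I chronic cells carried the OT-I transgenic T cell receptor, which recognises the ovalbumin peptide SIINFEKL, and were activated with that peptide. Both OT-I groups were then cultured together with B16-F10 mouse melanoma cells pretreated with interferon gamma, without the peptide (acute) or with it (chronic). Vehicle acute, vehicle chronic and NAC chronic cells were C57BL/6 cells handled like the polyclonal ones, and NAC chronic cells had 10 mM N-acetylcysteine, a thiol antioxidant, from 48 h after the first stimulation. No acute cells with NAC enter these comparisons. The labels do not say that the 3 libraries of a group came from separate cultures or animals, so the p-values measure the spread between these libraries only, which may be technical.

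Reads recovered from the RPKM values gave depths of 5347355 to 25218890 per library. Lowly expressed genes were raised in 3 libraries (polyclonal acute 2, polyclonal chronic 2 and OT-I acute 3), where the median RPKM of 1717 such genes was 1.28, 0.842 and 1.31 against 0.0795 to 0.511 in the other libraries of those groups, and 4 members (Itgae, Itga1, Itgam and Itgax) had values of that order in some libraries. The CD8 label was checked against marker RNA. Cd8a and Cd8b1 together stood at 229.6 to 375 RPKM in 18 libraries but at 29.8 to 32.5 in polyclonal chronic cells, where Cd4 was 303 to 317 and the B cell list summed to 198 to 221, against 64.1 to 69.7 and 3.20 to 12.3 in polyclonal acute cells. Both OT-I groups held melanocyte RNA, 7023 to 7310.5 RPKM summed in acute and 3849 to 3931 in chronic libraries. The same list summed to 23.2 to 59.5 in polyclonal acute and 21.1 to 40.1 in polyclonal chronic libraries, although no tumour cells are described there. In the vehicle and NAC libraries it summed to 1.01 to 4.34. Where the polyclonal reads of this list came from was not tested. B cell markers summed to 4.65 to 9.71 in OT-I acute and 34.9 to 38.3 in OT-I chronic libraries. Natural killer markers and the myeloid markers Mpeg1 and Cd14 were higher in the OT-I chronic libraries too (values beside Itgam). The myeloid markers Adgre1, Flt3 and Zbtb46 overlapped between the OT-I groups. The geometric mean of 5 pan-leukocyte genes (Ptprc, Lcp1, Coro1a, Cd53 and Laptm5) was 268 to 316 RPKM in OT-I libraries and 558 to 642 in all others. Orders of the 7 groups by RPKM given below are not adjusted for this. In bulk RNA, fewer cells of a type and less RNA per cell cannot be told apart, and neither can T cell and tumour cell RNA in the OT-I groups. The part of these other cells in the changes given next was not tested.

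Repeated stimulation lowered Itgb7 and raised Itgav in each of the 3 experiments. Itgb7 fell by 12.6 times in vehicle cells, 3.98 times in OT-I cells and 1.62 times in polyclonal cells, while Itgav rose by 3.85, 1.36 and 2.09 times. Itgb1, the partner chain of α1 and α4, fell in polyclonal and vehicle cells and was not called in OT-I cells. Itgax, the α chain of CD11c/CD18, fell in polyclonal cells and rose in vehicle cells. NAC in chronic cells raised 7 members, among them Itgax, Itga4 and Itgb7, and lowered Itga1 and Itgav. Changes are differences of group means of log2(RPKM + 1), which understate those of low genes, and fold values are ratios of mean RPKM. A change was called at a Benjamini-Hochberg adjusted p under 0.05 over 12630 tested genes in a limma fit of all 21 libraries.

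In polyclonal cells 9 of 10 members were called, 3 higher and 6 lower, where 64.1% of all genes were called (28.6% higher and 35.5% lower). Changes of 1 or more on the log2 scale were called for 4 of 10 members and 13.1% of genes. In OT-I cells 5 of 10 were called, 3 higher and 2 lower, near the background of 58.6% (22.4% higher and 36.2% lower), and 1 of 10 reached a log2 change of 1 against 5.7% of genes. In vehicle cells 9 of 10 were called, 4 higher and 5 lower, against 58.9% (24.5% and 34.4%), and 4 of 10 reached a log2 change of 1 against 10.6%. NAC against vehicle in chronic cells called 9 of 10, 7 higher and 2 lower, against 61.1% (38.5% and 22.6%), with 5 of 10 past a log2 change of 1 against 9.29%. The members' median log2 change was -0.58 in polyclonal, -0.05 in OT-I and -0.11 in vehicle cells and 0.66 under NAC, where the medians over all genes were -0.08, -0.12, -0.03 and 0.08. With 10 members, chosen with earlier results of these data known, whether these shares differ from the background was not tested. Scaling all libraries to the same median RPKM shifted log2 changes under NAC by -0.14, and moved the genes called from 4862 higher and 2854 lower to 3630 and 3890. The same scaling moved them from 2827 higher and 4568 lower to 3453 and 3630 in OT-I cells, from 3093 and 4340 to 3766 and 3627 in vehicle cells, and from 3608 and 4489 to 4050 and 4023 in polyclonal cells.

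**Figure D1:**
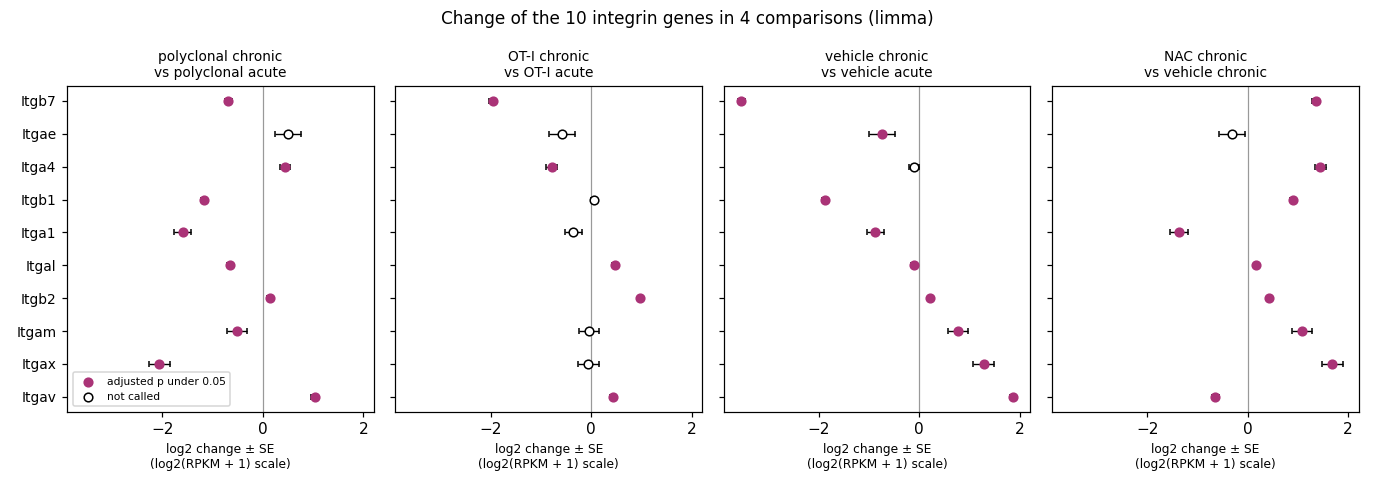
Difference of group means of log2(RPKM + 1) for the 10 members (vertical axis) in 4 comparisons, with bars of 1 standard error from the limma fit of 21 libraries; filled points have an adjusted p under 0.05. Itgb7 lies below 0 in the 3 chronic against acute comparisons and above 0 for NAC against vehicle, and Itgav does the reverse.

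Start site sequences are shown for 4 members, because Itgb7 and Itgav moved in opposite directions in every experiment and because Itgam and Itgax, which are neighbours on their chromosome, rose together in vehicle chronic and NAC cells. They are the 250 bases before the start site, 5′ to 3′ on the gene's strand, from a RefSeq table of build GRCm38.p6, which matched 7 of the 10 members. Itgb7 lies at chr15:102231936-102232185 on the minus strand, and Itgav at chr2:83724147-83724396, Itgam at chr7:128062390-128062639 and Itgax at chr7:128129300-128129549 on the plus strand. Capitals mark matches, on either strand, to 4 short motifs of factors known in leukocyte genes: TGTGGT (RUNX), GAGGAA (PU.1), GGGCGG (SP1) and TGANTCA (AP-1).
Itgb7: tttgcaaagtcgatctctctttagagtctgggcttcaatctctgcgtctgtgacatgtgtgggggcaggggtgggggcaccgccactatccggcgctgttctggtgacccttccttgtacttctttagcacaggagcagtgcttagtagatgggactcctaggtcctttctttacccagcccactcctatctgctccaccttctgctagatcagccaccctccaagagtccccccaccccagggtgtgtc
Itgav: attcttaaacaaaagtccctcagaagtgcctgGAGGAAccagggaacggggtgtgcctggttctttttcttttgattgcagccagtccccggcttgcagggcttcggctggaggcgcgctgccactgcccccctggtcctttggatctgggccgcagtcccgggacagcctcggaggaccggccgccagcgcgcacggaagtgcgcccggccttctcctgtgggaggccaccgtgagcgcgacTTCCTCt
Itgam: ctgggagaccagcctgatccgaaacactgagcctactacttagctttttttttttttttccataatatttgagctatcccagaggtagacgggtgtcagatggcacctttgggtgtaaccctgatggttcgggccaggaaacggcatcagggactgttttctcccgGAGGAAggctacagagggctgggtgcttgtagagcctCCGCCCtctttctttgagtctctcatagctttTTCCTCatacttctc
Itgax: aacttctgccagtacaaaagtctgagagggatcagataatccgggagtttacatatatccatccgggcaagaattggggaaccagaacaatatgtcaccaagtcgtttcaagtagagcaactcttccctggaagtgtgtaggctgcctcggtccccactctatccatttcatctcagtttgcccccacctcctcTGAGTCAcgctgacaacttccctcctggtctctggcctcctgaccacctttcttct
The Itgb7 window holds none of the 4 motifs. Itgav and Itgam each hold the PU.1 letters at 2 places, Itgam also holds the SP1 letters, and Itgax holds the AP-1 letters, 56 bases before its start. Over 32851 promoters of the same length the letters occur in 14.0% (RUNX), 23.3% (PU.1), 32.7% (SP1) and 6.75% (AP-1), and over the 7 members in 1 (Itga4), 3 (Itgb1, Itgam and Itgav), 3 (Itga4, Itgb1 and Itgam) and 1 (Itgax). A match describes letters in this window only.

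Itgb7 encodes the β7 chain, shared by α4β7 and αEβ7, and its fall in vehicle cells was the largest of any member in a chronic against acute comparison. Itgb7 was 106, 95.0 and 91.1 RPKM in polyclonal acute and 59.997, 56.1 and 64.4 in polyclonal chronic libraries. Itgb7 was 159.6, 161 and 138 RPKM in OT-I acute and 38.6, 38.7 and 37.9 in OT-I chronic libraries. Itgb7 was 143, 148 and 147 RPKM in vehicle acute, 11.4, 11.1 and 12.4 in vehicle chronic and 28.6, 31.5 and 33.9 in NAC chronic libraries. In each experiment every chronic library lay below every acute one, and the NAC libraries lay between the other groups of their experiment. The log2 change was -0.69 ± 0.070 (SE) in polyclonal cells (limma adjusted p = 3.63e-08), -1.96 ± 0.070 in OT-I cells (adjusted p = 1.3e-14) and -3.55 ± 0.070 in vehicle cells (adjusted p = 1.69e-19). NAC raised it by 1.35 ± 0.070 over vehicle chronic cells, 2.70 times (limma adjusted p = 1.54e-12). By rank of mean RPKM among the 13202 genes, Itgb7 stood at 447 in vehicle acute and at 5956 in vehicle chronic cells. Ordered by mean, OT-I acute (153 ± 12.9 RPKM, SD, n = 3) and vehicle acute cells (146 ± 2.59) overlapped, and each lower group stood apart from the next: polyclonal acute, polyclonal chronic, OT-I chronic, NAC chronic and vehicle chronic (11.6 ± 0.653).

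Itga4 encodes α4, the chain that pairs with β1 for VCAM-1 and with β7 for MAdCAM-1. It was called in the same direction as Itgb7 in OT-I cells (lower) and under NAC (higher), and not in polyclonal or vehicle cells. Itga4 was 8.92, 10.3 and 9.79 RPKM in polyclonal acute and 13.2, 14.8 and 12.52 in polyclonal chronic libraries, a rise of 0.44 ± 0.11 on the log2 scale (limma adjusted p = 0.00107). Itga4 was 11.4, 9.83 and 15.3 RPKM in OT-I acute and 6.77, 6.93 and 5.99 in OT-I chronic libraries, a fall with a log2 change of -0.78 ± 0.11 (limma adjusted p = 2.90e-06). The chronic libraries were all higher in the first experiment and all lower in the second. Itga4 was 7.94, 7.85 and 9.31 RPKM in vehicle acute and 7.52, 7.79 and 7.68 in vehicle chronic libraries, a difference of -0.11 ± 0.11 that was not called (limma adjusted p = 0.413) although the groups did not overlap. NAC chronic libraries had 22.2, 22.2 and 23.6 RPKM, the highest of the 7 groups, 2.96 times vehicle chronic (log2 change 1.45 ± 0.11, limma adjusted p = 3.21e-10). The polyclonal chronic, OT-I acute, polyclonal acute and vehicle acute groups formed a run in which each overlapped the next in order. In the GENCODE M21 annotation 127 of the 9767 exon bases of Itga4 are shared with Cerkl on the opposite strand, and whether the counts used strand is not stated in the labels.

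Itgae encodes αE, the CD103 chain that pairs only with β7, and it was among the lowest members, with 21 to 199 reads per library. Itgae was 0.427, 2.66 and 1.30 RPKM in polyclonal acute and 1.89, 3.11 and 1.91 in polyclonal chronic libraries, overlapping groups with a log2 difference of 0.51 ± 0.26 that was not called (limma adjusted p = 0.091). The highest polyclonal values belong to the pair of libraries with raised low genes: without polyclonal acute 2 the log2 change was 0.85 and was called (limma adjusted p = 0.00311), without the 3 libraries of raised low genes it was 0.68 (adjusted p = 0.000861), and limma-voom on recovered reads gave 1.33 (adjusted p = 0.0116). Itgae was 0.571, 0.708 and 1.93 RPKM in OT-I acute and 0.451, 0.182 and 0.371 in OT-I chronic libraries. The OT-I chronic libraries were all lower, 3.20 times by mean, but the log2 difference of -0.58 ± 0.26 was not called (limma adjusted p = 0.0582). It was called with a pseudocount of 0.1 (-1.30, adjusted p = 0.0217), with scaling to pan-leukocyte genes (-0.72, adjusted p = 0.0343), with limma-voom (-1.34, adjusted p = 0.0354), without OT-I acute 1 (-0.75, adjusted p = 0.0296) and without OT-I acute 2 (-0.69, adjusted p = 0.0486).

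In the vehicle experiment, whose libraries had the lowest values of low genes, Itgae was 1.97, 2.10 and 2.53 RPKM in acute, 0.878, 1.04 and 0.831 in chronic and 0.523, 0.470 and 0.639 in NAC chronic libraries. The 3 groups did not overlap, and acute cells were highest. Itgae fell 2.41 times with repeated stimulation (log2 change -0.74 ± 0.26, limma adjusted p = 0.0177), and the call was lost without vehicle acute 3 (-0.67, adjusted p = 0.0624) or vehicle chronic 3 (-0.71, adjusted p = 0.05001). NAC cells were 1.68 times lower than vehicle chronic cells, a log2 difference of -0.31 ± 0.26 that was not called (limma adjusted p = 0.319) and was called when only these groups were fitted (adjusted p = 0.00287). A gene for a mitotic kinase, Haspin (in the table as Gsg2), lies within Itgae on the opposite strand and shares no exon base with it. Its RPKM was 14.8 to 15.95 in vehicle acute, 7.71 to 8.44 in vehicle chronic and 8.24 to 9.13 in NAC chronic libraries, and its part in the Itgae reads was not tested.

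**Figure D2:**
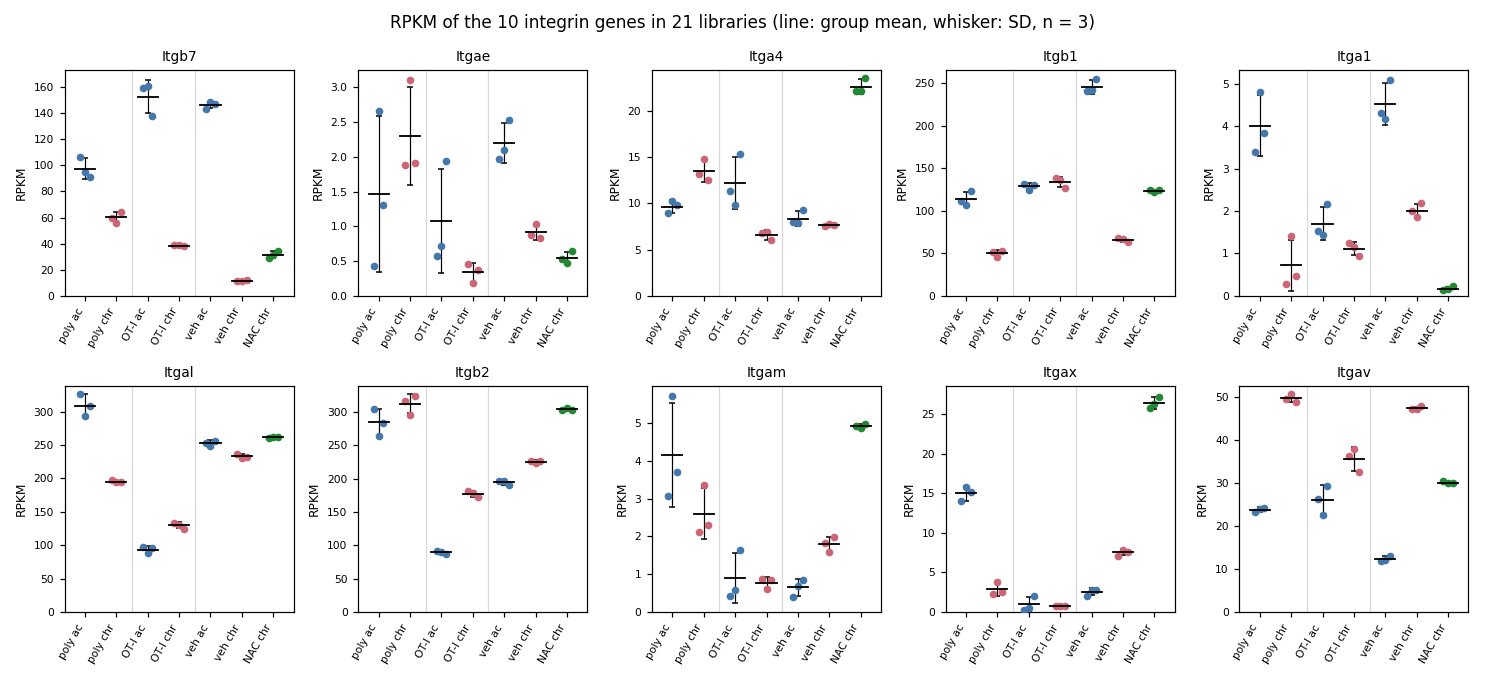
RPKM (vertical axis, from 0) of each member in the 21 libraries, 1 panel per gene and 1 column per group, with a line at the mean and a whisker of 1 SD (n = 3). In the Itgb7 panel the vehicle chronic libraries lie at 11.1 to 12.4 and the vehicle acute libraries at 143 to 148.

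Itgb1 encodes β1, the common chain of the collagen, fibronectin and VCAM-1 receptors. Itgb1 was 112, 107 and 123 RPKM in polyclonal acute and 51.6, 45.8 and 52.5 in polyclonal chronic libraries, a fall of 2.28 times (log2 change -1.17 ± 0.056, limma adjusted p = 2.01e-13). Itgb1 was 241, 242 and 256 RPKM in vehicle acute and 68.0, 66.3 and 63.4 in vehicle chronic libraries, a fall of 3.74 times (log2 change -1.89 ± 0.056, limma adjusted p = 1.12e-16). In both experiments every chronic library was lower than every acute one. NAC chronic libraries had 124, 122 and 124 RPKM, 1.88 times vehicle chronic and below vehicle acute (log2 change against vehicle chronic 0.90 ± 0.056, limma adjusted p = 2.56e-11). OT-I libraries, which hold melanoma RNA, had 132, 125 and 129.7 RPKM in acute and 138, 136 and 127 in chronic cells, with overlapping groups and a log2 difference of 0.06 ± 0.056 (limma adjusted p = 0.405). Scaled to pan-leukocyte genes the OT-I difference was 0.19 and was called (limma adjusted p = 0.00411). OT-I chronic with OT-I acute, and NAC chronic with polyclonal acute, were the neighbours in level that overlapped.

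Itga1 encodes α1, the CD49a chain of the collagen IV receptor, and it fell with repeated stimulation in both experiments without tumour cells. Itga1 was 3.39, 4.81 and 3.84 RPKM in polyclonal acute and 0.264, 1.40 and 0.475 in polyclonal chronic libraries, 5.62 times lower (log2 change -1.60 ± 0.17, limma adjusted p = 9.54e-08), and over the alternatives the change reached -2.89. Itga1 was 4.31, 4.16 and 5.09 RPKM in vehicle acute and 1.99, 1.85 and 2.18 in vehicle chronic libraries, 2.25 times lower (log2 change -0.87 ± 0.17, limma adjusted p = 0.000216). NAC chronic libraries had 0.133, 0.151 and 0.217 RPKM, 12.02 times below vehicle chronic (log2 change -1.37 ± 0.17, limma adjusted p = 1.09e-06), with a range of -3.56 to -1.17 over the alternatives. In each of these comparisons the groups did not overlap, and NAC cells had the lowest Itga1 of the 7 groups. Itga1 was 1.52, 1.43 and 2.15 RPKM in OT-I acute and 1.24, 1.15 and 0.939 in OT-I chronic libraries, groups that did not overlap but whose log2 difference of -0.35 ± 0.17 was not called (limma adjusted p = 0.0927). It was called by limma-voom (-0.54, adjusted p = 0.0134) and without the 3 libraries of raised low genes (-0.23, adjusted p = 0.0359). In GENCODE M21 the gene Gm49395, on the same strand, shares 451 of the 10967 exon bases of Itga1. Pelo also overlaps Itga1 on the same strand and shares no exon base with it. Its RPKM was 14.4 to 18.0 in polyclonal acute and 9.21 to 11.5 in polyclonal chronic libraries. Pelo was 23.8 to 24.7 in vehicle acute, 14.0 to 15.9 in vehicle chronic and 7.68 to 9.40 in NAC chronic libraries. In OT-I libraries it was 20.5 to 24.0 in acute and 20.7 to 22.2 in chronic cells. The part of Pelo in the Itga1 reads was not tested.

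**Figure D3:**
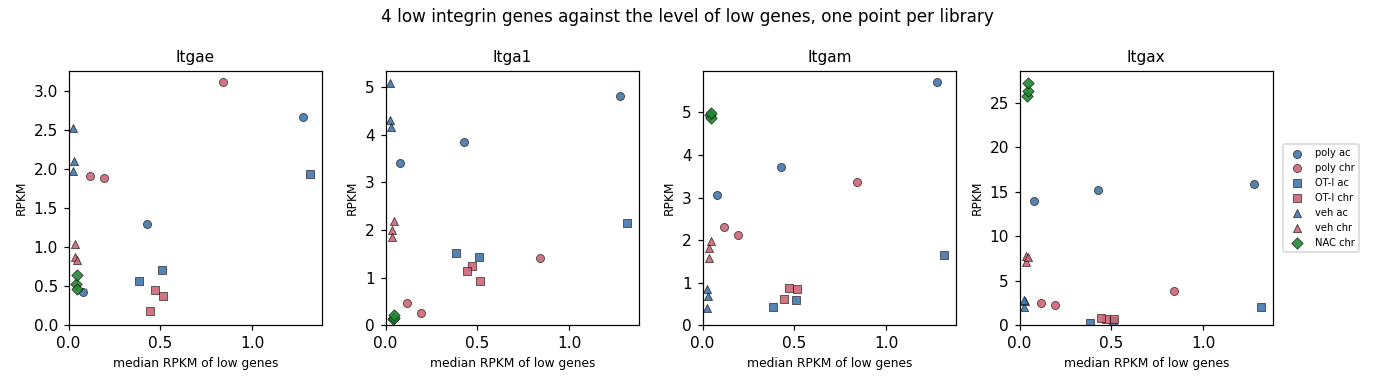
RPKM of the 4 lowly expressed members Itgae, Itga1, Itgam and Itgax (vertical axis) against the median RPKM of 1717 low genes (horizontal axis), 1 point per library, with the marker shape for the experiment and the colour for acute, chronic or NAC chronic cells. The 3 libraries with raised low genes lie at 0.842 to 1.31 on the horizontal axis, and the vehicle and NAC libraries at 0.0213 to 0.0432.

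Itgal encodes αL, the LFA-1 α chain, and either it or its partner Itgb2 was the most abundant member in every group but OT-I acute, where Itgb7 was. Itgal was 327, 293 and 308 RPKM in polyclonal acute and 197, 194 and 194 in polyclonal chronic libraries, a fall of 1.59 times (log2 change -0.66 ± 0.046, limma adjusted p = 8.58e-11). Itgal was 96.6, 87.9 and 95.3 RPKM in OT-I acute and 133, 131 and 125 in OT-I chronic libraries, a rise of 1.39 times (log2 change 0.47 ± 0.046, limma adjusted p = 3.16e-08). The groups overlapped in neither experiment, and the order was opposite. Beside the OT-I rise, summed melanocyte RNA was lower in the chronic libraries, although Sox10 was higher and Mlana overlapped. Sox10 was 126 to 134 RPKM in OT-I acute and 146 to 155 in OT-I chronic libraries. Cd3e, Cd3d and Cd3g together were lower in the chronic libraries, 598 to 779 in OT-I acute and 487 to 506 in OT-I chronic ones. The Itgal rise was 0.61 after scaling to pan-leukocyte genes, and the part of tumour and T cell RNA in it was not tested. Itgal was 253, 249 and 257 RPKM in vehicle acute, 237, 230.4 and 233 in vehicle chronic and 260.2, 263 and 262 in NAC chronic libraries. These 3 groups lay within 1.12 times of each other by mean. The fall from vehicle acute to vehicle chronic was 0.12 ± 0.046 on the log2 scale (-0.12, limma adjusted p = 0.0357), and the call was lost when libraries were scaled to the same median (-0.03, adjusted p = 0.586) and without vehicle acute 1 or 3 or any 1 of the vehicle chronic libraries (adjusted p of 0.0522 to 0.0989). NAC raised Itgal over vehicle chronic by 0.17 ± 0.046 (limma adjusted p = 0.00386), a call also lost with the same-median scaling (0.02, adjusted p = 0.693).

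Itgb2 encodes β2 (CD18), the chain that αL, αM and αX share. Itgb2 was 91.7, 90.5 and 86.7 RPKM in OT-I acute and 182, 178 and 173 in OT-I chronic libraries, a rise of 1.98 times without overlap (log2 change 0.98 ± 0.049, limma adjusted p = 1.92e-12). Itgb2 was 305, 265 and 284 RPKM in polyclonal acute and 317, 296 and 325 in polyclonal chronic libraries, overlapping groups with a log2 change of 0.14 ± 0.049 (limma adjusted p = 0.0196). That call was lost without polyclonal acute 2 (0.09, adjusted p = 0.142), chronic 1 (0.13, adjusted p = 0.0619) or chronic 3 (0.11, adjusted p = 0.0902), and with only the compared groups in the fit (adjusted p = 0.159). Itgb2 was 197, 196 and 190.1 RPKM in vehicle acute, 226, 223 and 226 in vehicle chronic and 303, 306 and 303 in NAC chronic libraries. Each step up was without overlap. The rise was 0.21 ± 0.049 from vehicle acute to vehicle chronic (limma adjusted p = 0.000876), lost after scaling to pan-leukocyte genes (0.02, adjusted p = 0.613). It was 0.43 ± 0.049 from vehicle chronic to NAC chronic (limma adjusted p = 2.29e-07). Polyclonal chronic, NAC chronic and polyclonal acute cells were the highest and overlapped in that order, and OT-I acute cells were the lowest. This order was not adjusted for the lower pan-leukocyte level of the OT-I libraries.

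Itgax encodes αX, the CD11c chain, which is best known on dendritic cells and is also carried by activated CD8 T cells. Its highest groups (NAC chronic and polyclonal acute) and lowest groups (both OT-I groups) were those of Itgal too. Both OT-I groups were also the lowest in pan-leukocyte genes, and the part of tumour RNA in this order was not tested. Itgax was 14.0, 15.8 and 15.2 RPKM in polyclonal acute and 2.26, 3.82 and 2.56 in polyclonal chronic libraries, a fall of 5.21 times (log2 change -2.06 ± 0.21, limma adjusted p = 2.44e-08). Itgax was 2.02, 2.77 and 2.79 RPKM in vehicle acute, 7.10, 7.83 and 7.64 in vehicle chronic and 25.7, 26.3 and 27.2 in NAC chronic libraries. Chronic cells were lower than acute cells without overlap in the first experiment and higher without overlap in the second, and NAC chronic cells were highest of all 7 groups. The vehicle rise was 2.98 times (log2 change 1.28 ± 0.21, limma adjusted p = 1.89e-05) and NAC raised it 3.51 times further (log2 change 1.69 ± 0.21, limma adjusted p = 5.88e-07). Itgax was 0.288, 0.506 and 2.04 RPKM in OT-I acute and 0.724, 0.788 and 0.703 in OT-I chronic libraries, overlapping groups with a log2 difference of -0.06 ± 0.21 (limma adjusted p = 0.826). Without OT-I acute 3, a library with raised low genes, that difference was 0.32 (limma adjusted p = 0.0427), the opposite direction.

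Itgam encodes αM, the CD11b chain of myeloid cells, natural killer cells and some CD8 T cells. Itgam was 0.406, 0.698 and 0.856 RPKM in vehicle acute, 1.82, 1.58 and 1.98 in vehicle chronic and 4.93, 4.87 and 4.98 in NAC chronic libraries. As with Itgax, the 3 groups rose in that order without overlap. The rise was 2.75 times at each step (log2 change 0.76 ± 0.20 with limma adjusted p = 0.00254, then 1.09 ± 0.20 with adjusted p = 8.94e-05), and the alternatives gave up to 1.51 for the first step. Itgam was 3.07, 5.71 and 3.71 RPKM in polyclonal acute and 2.12, 3.37 and 2.30 in polyclonal chronic libraries, overlapping groups with a log2 change of -0.51 ± 0.20 (limma adjusted p = 0.0329). This call was lost without polyclonal acute 2 (-0.30, adjusted p = 0.199), chronic 1 (-0.41, adjusted p = 0.125) or chronic 3 (-0.45, adjusted p = 0.0967), with a pseudocount of 0.1 (-0.64, adjusted p = 0.106), after scaling to pan-leukocyte genes (-0.46, adjusted p = 0.107) and with only the compared groups fitted (adjusted p = 0.0704). OT-I libraries had 0.425, 0.591 and 1.64 RPKM in acute and 0.881, 0.610 and 0.846 in chronic cells, which overlapped (log2 difference -0.03 ± 0.20, limma adjusted p = 0.894), and without OT-I acute 3 the difference was 0.24. In GENCODE M21, 3450 of the 4926 exon bases of Itgam are shared with Gm49368 on the same strand, so its reads are uncertain where the counting could split them.

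Myeloid cells also carry αM and αX, and their marker RNA stood as follows. The 5 myeloid markers in the table (of 9 listed) summed to 0.316 to 0.381 RPKM in vehicle acute, 2.77 to 3.32 in vehicle chronic and 1.92 to 2.29 in NAC chronic libraries. Of these, Adgre1, which encodes the macrophage antigen F4/80, was at 0 in all 3 vehicle chronic libraries and at 0 to 0.0427 in NAC chronic libraries. Mpeg1 was at 0.0131 to 0.0274 and 0.0449 to 0.0612, Flt3 at 0.0325 to 0.0514 and 0 to 0.0178, Cd14 at 1.04 to 1.09 and 0.440 to 0.782, and Zbtb46 at 1.64 to 2.22 and 1.39 to 1.497. The sum of the list was higher in vehicle chronic than in vehicle acute libraries, the order of Itgax and Itgam, and lower in NAC than in vehicle chronic libraries, the opposite of their order. Its genes did not move together. In vehicle acute libraries Cd14 (0.0819 to 0.215) and Zbtb46 (0.0356 to 0.0816) were lower than in vehicle chronic ones, and Mpeg1 (0.0314 to 0.121) was higher. Adgre1 (0 to 0.0839) and Flt3 (0.0159 to 0.0372) overlapped between these groups. In the polyclonal experiment the list summed to 1.51 to 9.65 in acute and 10.8 to 13.3 in chronic libraries, the opposite order to Itgax. Mpeg1 (0.144 to 1.29 and 4.95 to 5.37) and Zbtb46 (0.187 to 1.29 and 3.01 to 3.64) had that order, while Adgre1, Cd14 and Flt3 overlapped. Klrb1c, which encodes the natural killer receptor NK1.1, was 21.1 to 21.8 in polyclonal acute and 0.702 to 1.47 in polyclonal chronic libraries, the same order as Itgax. It was 8.46 to 8.96 in vehicle acute, 10.3 to 10.8 in vehicle chronic and 7.08 to 7.37 in NAC chronic libraries, so NAC libraries, the highest in Itgax, were the lowest in Klrb1c. The other natural killer marker listed, Ncr1, overlapped between the polyclonal groups (0.107 to 2.30 in acute and 0.0451 to 0.972 in chronic libraries) and was at most 0.454 in the vehicle and NAC libraries. In OT-I libraries the myeloid list was 3.24 to 6.67 in acute and 19.1 to 20.3 in chronic cells and the sum of both natural killer markers 1.64 to 3.32 and 10.7 to 12.6, while Itgax and Itgam were not called. Of the myeloid list, Mpeg1 was 1.82 to 2.06 in OT-I acute and 14.6 to 16.4 in OT-I chronic libraries. Cd14 was 0.199 to 0.596 and 2.20 to 2.59, and Adgre1, Flt3 and Zbtb46 overlapped. The part of natural killer and myeloid cells in these values was not tested.

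Itgav encodes αv, the chain that pairs with β1, β3, β5, β6 and β8 to bind vitronectin, fibronectin and latent TGFβ. Itgav was 23.1, 23.8 and 24.2 RPKM in polyclonal acute and 49.4, 50.5 and 48.8 in polyclonal chronic libraries, a rise of 2.09 times (log2 change 1.03 ± 0.067, limma adjusted p = 3.31e-11). Itgav was 26.3, 22.5 and 29.3 RPKM in OT-I acute and 36.2, 37.9 and 32.4 in OT-I chronic libraries, a rise of 1.36 times (log2 change 0.44 ± 0.067, limma adjusted p = 1.45e-05). Itgav was 11.9, 12.02 and 13.01 RPKM in vehicle acute and 47.2, 47.2 and 47.7 in vehicle chronic libraries, a rise of 3.85 times (log2 change 1.86 ± 0.067, limma adjusted p = 2.91e-15). Every chronic library lay above every acute library of its experiment. NAC chronic libraries had 30.3, 30.0 and 29.8 RPKM, between vehicle acute and vehicle chronic and 1.58 times below the latter (log2 change -0.64 ± 0.067, limma adjusted p = 7.61e-08). OT-I acute and polyclonal acute cells were the neighbours in level that overlapped.

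Among the known partner chains of αv, Itgb3 rose with repeated stimulation in vehicle cells and fell in polyclonal and OT-I cells. Itgb3, of the vitronectin receptor αvβ3, was 40.01, 41.6 and 45.0 RPKM in vehicle acute and 159, 153 and 153 in vehicle chronic libraries (log2 change 1.85, limma adjusted p = 1.59e-16), where Itgav rose too. It was 145, 142 and 146 in NAC chronic libraries, a log2 difference of -0.10 from vehicle chronic that was not called (limma adjusted p = 0.134). In polyclonal libraries Itgb3 was 64.4, 59.2 and 62.2 in acute and 41.9, 35.4 and 38.5 in chronic cells, a fall while Itgav rose (log2 change -0.67, limma adjusted p = 1.69e-09). In OT-I libraries it fell too while Itgav rose, from 24.9, 22.6 and 24.96 to 16.1, 16.5 and 15.6 (log2 change -0.56, limma adjusted p = 5.04e-08). Itgb8, whose product with αv activates latent TGFβ, was 0 to 0.162 RPKM in the 6 vehicle libraries and 2.87, 2.58 and 3.02 in NAC chronic ones (log2 change 1.76 against vehicle chronic, limma adjusted p = 4.98e-07). Itgb5, of αvβ5, was highest in the libraries with tumour cells, at 13.3, 12.3 and 12.2 RPKM in OT-I acute and 6.2005, 6.00 and 6.25 in OT-I chronic cells, and at 0.191, 0.191 and 0.307 in vehicle chronic libraries.

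**Figure D4:**
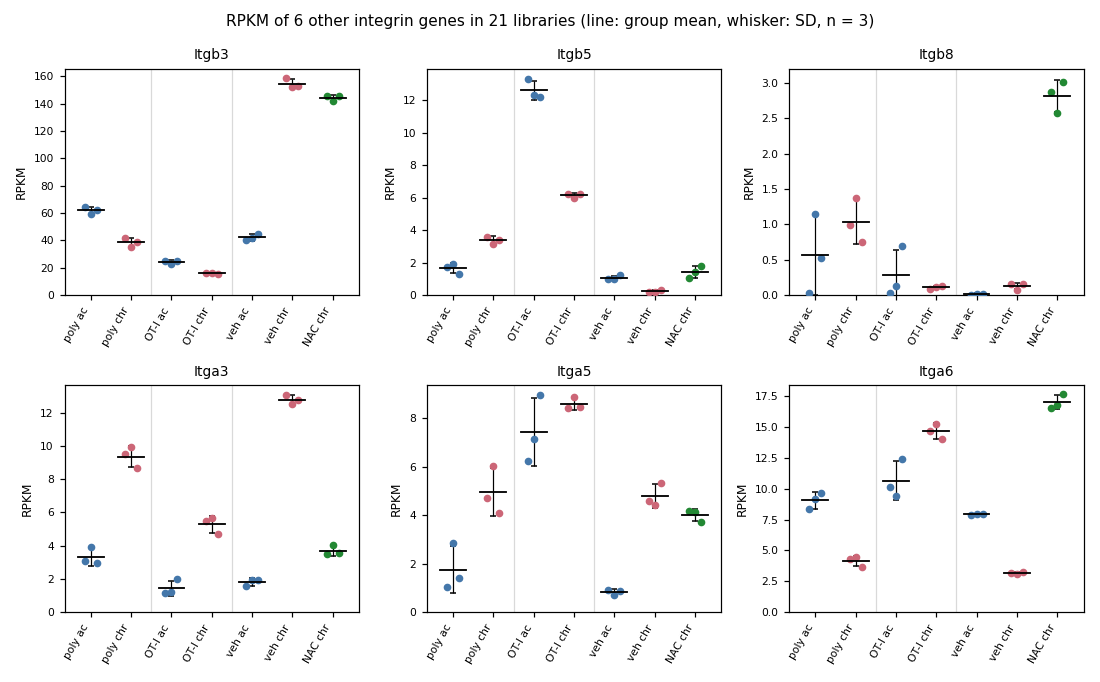
RPKM (vertical axis, from 0) of 6 integrin genes that are not members, Itgb3, Itgb5, Itgb8, Itga3, Itga5 and Itga6, in the 21 libraries by group, with a line at the mean and a whisker of 1 SD (n = 3). Itgb3 lies at 153 to 159 in vehicle chronic and at 40.01 to 45.0 in vehicle acute libraries.

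Ratios of subunit RNA within a library do not depend on how libraries were scaled. They describe the RNA of the chains in the whole library, not which pairs formed. OT-I libraries also hold melanoma RNA, and its part in their ratios was not tested. The ratio of Itgb7 to Itgb1 was 0.860 (0.741 to 0.950) in polyclonal acute and 1.204 (1.16 to 1.22) in polyclonal chronic cells, as both fell and Itgb1 by more. It was 1.19 (1.06 to 1.29) in OT-I acute and 0.287 (0.280 to 0.298) in OT-I chronic cells, and 0.595 (0.576 to 0.614) in vehicle acute, 0.177 (0.168 to 0.195) in vehicle chronic and 0.253 (0.229 to 0.273) in NAC chronic cells. The ratio was thus higher in chronic than in acute libraries in the polyclonal experiment and lower in the others, with no overlap in any. The ratio of Itgal to Itgb2 was below its acute value in chronic cells of all 3 experiments: 1.09 and 0.625 in polyclonal, 1.04 and 0.730 in OT-I and 1.30 and 1.035 in vehicle cells, with 0.861 in NAC chronic cells. Itgax made up 9.02% of the summed RPKM of the α chains Itgal, Itgam and Itgax in NAC chronic cells, 4.58% in polyclonal acute and 3.10% in vehicle chronic cells, and 0.563% to 1.44% in the other 4 groups. Itgal was the main α chain of β2 in every group.

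**Figure D5:**
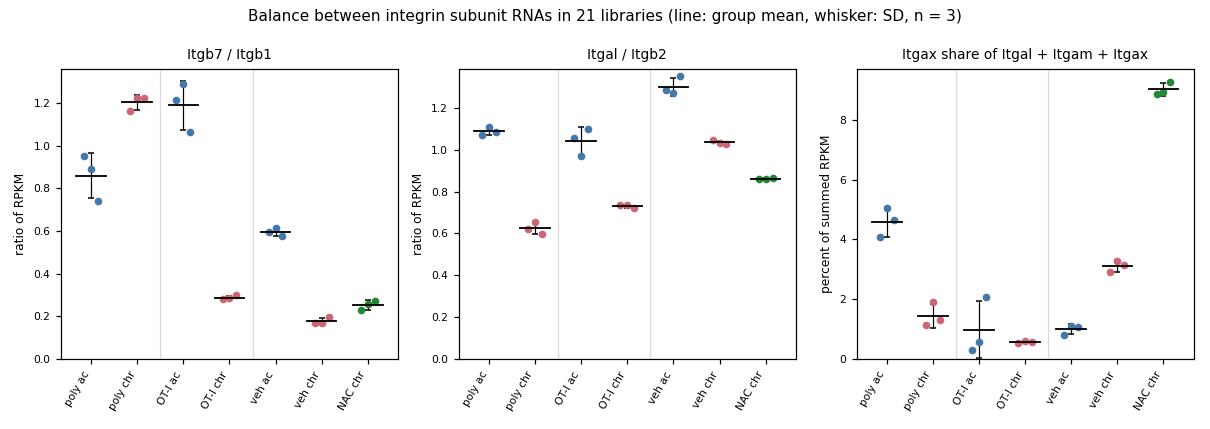
Ratios of subunit RPKM per library (vertical axes, from 0) by group: Itgb7 over Itgb1, Itgal over Itgb2, and Itgax as a percent of Itgal, Itgam and Itgax summed. The Itgax share is 9.02% on average in NAC chronic cells and 0.987% in vehicle acute cells.

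NAC chronic cells were also set beside vehicle acute cells, a comparison that shares its libraries with both others of that experiment. It called 9 of 10 members, 5 higher and 4 lower, against 66.3% of all genes (36.3% higher and 29.9% lower), and the median change of the members was 0.35 against 0.04. Itgb7 was 4.67 times lower in NAC chronic than in vehicle acute cells (log2 change -2.19, limma adjusted p = 4.39e-16) and Itgb1 1.99 times lower (-0.99, adjusted p = 3.89e-12). Itgav was 2.44 times higher (1.22, adjusted p = 2.57e-12). For these 3 members the NAC chronic level lay between the acute and chronic levels with vehicle. For Itga4, Itgb2, Itgam and Itgax it lay above both, with log2 changes from vehicle acute of 1.34, 0.64, 1.85 and 2.97 (limma adjusted p of 7.2e-10, 4.19e-10, 7.37e-08 and 9.64e-11). For Itga1 and Itgae it lay below both, 27.1 and 4.05 times under vehicle acute (-2.24 and -1.05, limma adjusted p of 5.91e-10 and 0.00119). Itgal differed from vehicle acute by 0.05 (limma adjusted p = 0.364), and by -0.12 after scaling to pan-leukocyte genes (adjusted p = 0.0347). Cd4 RNA was also higher in NAC chronic libraries, 46.7 to 48.9 RPKM against 2.16 to 2.63 in vehicle chronic and 12.98 to 14.7 in vehicle acute libraries, while Cd8a and Cd8b1 summed to 319 to 329, 232 to 235 and 262 to 268. Its part in these changes was not tested.

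The size of the chronic effect was compared between experiments by the test of the difference itself, and whatever else differs between the experiments cannot be told apart from it. Between vehicle and polyclonal cells 9 of 10 members differed, where 52.4% of all genes did. Itgax had the widest gap, 3.34 ± 0.29 on the log2 scale (limma adjusted p = 6.48e-09), from a fall in polyclonal and a rise in vehicle cells. Itgb7 differed by -2.86 ± 0.0996 (limma adjusted p = 3.77e-15), from a deeper fall in vehicle cells, and Itgb2 by 0.08 ± 0.069, which was not called (adjusted p = 0.39). Between OT-I and vehicle cells 8 of 10 members differed, where 58.5% of all genes did. Itgb1 differed most, by 1.94 ± 0.079 (limma adjusted p = 5.27e-14), as it fell in vehicle cells and was not called in OT-I cells, and Itgb7 differed by 1.58 ± 0.0996 (adjusted p = 4.02e-11). Itgae differed by 0.16 ± 0.36 (limma adjusted p = 0.726) and Itga1 by 0.52 ± 0.25 (adjusted p = 0.0761), neither of them called.

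Other genes of integrin biology were counted from 4 lists, beside a background over all genes of 28.6% higher and 35.5% lower in polyclonal, 22.4% and 36.2% in OT-I and 24.5% and 34.4% in vehicle cells, and 38.5% and 22.6% under NAC. Of 12 tested integrin subunits that are not members, 4 rose and 3 fell in polyclonal, 2 rose and 5 fell in OT-I and 3 rose and 4 fell in vehicle cells, and 3 rose and 2 fell under NAC. Itga3, the laminin receptor chain, rose in all 3 experiments, from 3.31 to 9.36 RPKM in polyclonal, 1.44 to 5.27 in OT-I and 1.80 to 12.8 in vehicle cells, and fell under NAC from 12.8 to 3.68 (log2 change -1.56). Itga6, which pairs with β1 or β4 for laminin, rose under NAC from 3.16 to 17.0 RPKM (2.11), fell in polyclonal (-0.97) and vehicle cells (-1.10) and rose in OT-I cells (0.44). Of 11 tested ligand genes, 4 rose and 2 fell in polyclonal, 5 and 1 in OT-I, 6 and 1 in vehicle cells, and 1 and 3 under NAC. Spp1 (osteopontin), a ligand of αv and α4 integrins, rose from 321 to 6380 RPKM in polyclonal (log2 change 4.31), 78.4 to 938 in OT-I (3.57) and 56.5 to 932 in vehicle cells (4.02). Icam1, the ligand of LFA-1, rose from 27.5 to 58.2 RPKM in polyclonal, 15.1 to 18.7 in OT-I and 27.9 to 36.7 in vehicle cells and fell under NAC to 17.3. Icam2, another LFA-1 ligand, fell in polyclonal (24.3 to 18.4) and vehicle cells (21.8 to 8.19), rose in OT-I cells (12.4 to 14.7) and rose under NAC to 19.0. For genes that are not members, each change named here and in the next paragraph had a limma adjusted p under 0.05 and groups that did not overlap.

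Of 26 tested genes that switch integrins on or link them to actin, 8 rose and 14 fell in polyclonal, 8 and 14 in OT-I, 8 and 10 in vehicle cells, and 10 rose and 7 fell under NAC. The medians of their log2 changes were -0.29, -0.27, -0.06 and -0.02, where those of all genes were -0.08, -0.12, -0.03 and 0.08, and whether the list differs from the background was not tested. Rasgrp2 (CalDAG-GEFI), which loads the GTPase Rap1 ahead of LFA-1 activation, fell in each experiment, from 34.8 to 1.76 RPKM in polyclonal, 35.9 to 11.004 in OT-I and 57.6 to 8.41 in vehicle cells. Fyb (ADAP), an adaptor between the T cell receptor and LFA-1, fell from 119 to 39.6 RPKM in polyclonal, 44.5 to 24.8 in OT-I and 77.1 to 60.7 in vehicle cells and rose under NAC from 60.7 to 225. Apbb1ip (RIAM), which brings talin to integrins, fell from 70.5 to 15.4 RPKM in polyclonal and from 70.3 to 49.4 in vehicle cells, and rose from 32.1 to 36.0 in OT-I cells and from 49.4 to 58.4 under NAC. Other genes of the list rose in each experiment. Vcl rose from 4.76 to 14.1 RPKM in polyclonal, 7.40 to 10.3 in OT-I and 4.61 to 12.8 in vehicle cells. Fermt3 rose from 154 to 192 RPKM in polyclonal, 68.7 to 106 in OT-I and 159 to 177 in vehicle cells. Of 25 tested genes of tissue residency and exit, 10 rose and 14 fell in polyclonal, 9 and 12 in OT-I, 10 and 10 in vehicle cells, and 11 and 11 under NAC. S1pr1, the receptor for exit from tissue, fell from 24.97 to 6.52 RPKM in polyclonal, 7.74 to 4.02 in OT-I and 52.8 to 4.36 in vehicle cells and rose under NAC to 15.7. Klf2, which drives its transcription, fell from 13.4 to 0.781 in polyclonal, 7.97 to 2.72 in OT-I and 32.4 to 3.95 in vehicle cells and rose under NAC to 12.8. Rgs1, a brake on chemokine receptor signals that is high in resident T cells, rose from 57.8 to 697 RPKM in polyclonal, 29.9 to 86.3 in OT-I and 48.8 to 518 in vehicle cells and fell under NAC to 139. Other genes of the list were mixed. Cd69 rose in polyclonal (44.6 to 56.9 RPKM) and fell in OT-I cells (105 to 52.2), and Cxcr6 fell in polyclonal cells (215 to 163). Cd101 fell in polyclonal (6.86 to 2.58) and OT-I cells (1.40 to 0.456). Eomes fell in polyclonal (120 to 7.76) and rose in OT-I cells (10.2 to 33.9). Ccr7 rose in polyclonal cells (6.57 to 17.5) and under NAC (29.6 to 416). In the main fit of log2(RPKM + 1) neither of the residency integrins Itgae and Itga1 was called higher in any of these 3 experiments. Alternatives given beside Itgae, limma-voom on recovered reads among them (1.33, adjusted p = 0.0116), called it higher in polyclonal cells.

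The genes whose log2(RPKM + 1) followed a member most closely over the 21 libraries were taken by Pearson correlation, given as a description over libraries that share experiment, depth and tumour RNA. For Itgb7 they were Fam134b (r = 0.965), Abcg1 (0.958) and Cyp2s1 (0.921). For Itgav they were Itpr1 (0.966), Gstt1 (0.954) and Dnajc1 (0.953), and for Itgax Map3k1 (0.970), Ttpal (0.960) and Herc2 (0.958). For Itgb1 they were Gpd1l (0.976), Cdca7l (0.964) and Ddx39b (0.946), and for Itga4 Krba1 (0.968), Fam117b (0.965) and Papd4 (0.954). Those nearest Itgal were Rhot2 (0.981), Iqgap1 (0.972) and Cep250 (0.971), and those nearest Itgb2 were Srebf2 (0.958), Acsl4 (0.947) and Nfatc1 (0.946).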

How the data were processed

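The authors deposited 1 table of RPKM on a linear scale for 21 poly(A) libraries, and its columns were matched to samples by name. Per the submitters' processing notes bcl2fastq 2.17, HTSeq, edgeR and the build mm9 were used; their role and order are not stated there. The aligner, annotation, gene filter and strand setting are not given in these sources. Each RPKM value was turned back into a whole number of reads for 100% of 13202 genes (tolerance 0.001 reads), which gave the depths. Over 21 pairs of libraries of a group, none held identical values, and the chi-square per gene was 1.52 to 54.6, above sampling noise.

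Tests used log2(RPKM + 1), with a pseudocount of 1, on the 12630 genes that reached RPKM 1 in 3 libraries, all 10 members among them. All libraries entered 1 limma fit (version 3.58.1, R 4.3.3) with 7 group means, no replicate block, an empirical Bayes trend and 14 residual degrees of freedom. P-values are two-sided, with Benjamini-Hochberg adjustment over all genes tested, and the test was checked on simulated data. The members and gene lists were chosen with earlier results of these data known. From each list and main comparison, up to 3 genes were eligible to be named, those called with the largest log2 change whose higher group averaged at least 1 RPKM, and some of them are left out. Genes alike to a member were the 3 with the highest correlation, for members with a mean RPKM of 5 or more in a group. Itgb3, Itgb5 and Itgb8 were given throughout as partner chains of αv, a choice made after their values were seen. Cd69, Cxcr6, Cd101 and Fermt3 were likewise named after their values were seen.

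Replicate numbers are shared within an experiment. Same-numbered libraries deviated together from their group means in the polyclonal experiment (r of 0.446, 0.629 and 0.168). However, polyclonal acute 1 matched polyclonal chronic 3 best, and library 2 had raised low genes in both groups. These values therefore cannot tell whether the numbers pair libraries, and no label says so. Same-numbered libraries did not deviate together in the OT-I experiment (0.052, -0.167 and -0.034) or in the vehicle and NAC experiment (-0.03 to 0.079). The alternatives tried were a pseudocount of 0.1, a filter of RPKM 5 or none, scaling to the same median or (members only) to pan-leukocyte genes, only the compared groups, the replicate block, limma-voom on recovered reads and leaving out each library. A fit without the 3 libraries of raised low genes was added after the data were seen.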

Additional observations from a re-analysis of the deposited data

Results flagged for a closer look

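For 9 members the chronic effect in vehicle cells differed from that in polyclonal cells by the test of the difference itself (limma, adjusted p under 0.05, log2 scale). The difference, vehicle minus polyclonal, was 3.34 for Itgax, 1.27 for Itgam, 0.83 for Itgav, 0.72 for Itga1 and 0.55 for Itgal. It was -2.86 for Itgb7, -1.25 for Itgae, -0.71 for Itgb1 and -0.55 for Itga4. The Itga1 difference lost its call without polyclonal chronic 1 (0.53, adjusted p = 0.0676), without polyclonal chronic 3 (0.64, adjusted p = 0.05001) and after scaling to pan-leukocyte genes (0.48, adjusted p = 0.136).

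For 8 members the chronic effect in OT-I cells differed from that in vehicle cells by the same test. The difference, OT-I minus vehicle, was 1.94 for Itgb1, 1.58 for Itgb7, 0.77 for Itgb2 and 0.59 for Itgal. It was -1.42 for Itgav, -1.34 for Itgax, -0.80 for Itgam and -0.67 for Itga4. The Itgam difference lost its call without OT-I acute 3 (-0.53, limma adjusted p = 0.0664), OT-I chronic 2 (-0.73, adjusted p = 0.0501) or vehicle acute 1 (-0.69, adjusted p = 0.0597), after scaling to pan-leukocyte genes (-0.57, adjusted p = 0.160) and by limma-voom (-1.22, adjusted p = 0.0504). The Itga4 difference lost it after scaling to pan-leukocyte genes (-0.42, adjusted p = 0.0577).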

How the results depend on the processing

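Every count of calls stayed within 1.5 times its reported value (141 of 141 checks). For members this bound is wide, since every count from 6 to 10 lies within 1.5 times of 9. Of 719 checks of a member's log2 change, 669 kept direction and call, while 17 lost a call, 16 gained one and 17 turned direction. Over the alternatives the members called numbered 7 to 10 in polyclonal, 5 to 7 in OT-I and 6 to 9 in vehicle cells and 7 to 10 for NAC against vehicle chronic, while genes called numbered 6748 to 8815, 6648 to 8468, 6792 to 8689 and 6925 to 9146; the filter of RPKM 5 leaves 7 members to test. Direction turned for changes near 0. Itgam in OT-I cells was 0.019 with a pseudocount of 0.1, 0.0018 with the same-median scaling, 0.037 with pan-leukocyte scaling, 0.28 by voom, 0.24 without the 3 libraries of raised low genes and -0.21 to 0.24 when single libraries were left out. Itgax in OT-I cells was 0.073 with a pseudocount of 0.1, 0.019 with pan-leukocyte scaling, 0.50 by voom, 0.32 without those 3 libraries and -0.30 to 0.32 when single libraries were left out. Itgal in NAC chronic against vehicle acute cells was -0.0082 with the same-median and -0.12 with pan-leukocyte scaling. The difference between vehicle and polyclonal effects for Itgb2 was -0.15 with pan-leukocyte scaling (limma adjusted p = 0.0211). That between OT-I and vehicle effects for Itgae was -0.12 with a pseudocount of 0.1, -0.084 by voom and -0.012 to 0.44 when single libraries were left out. The cause was not tested. With the replicate block, although no label says that the numbers pair libraries, 9, 5 and 9 members were called in polyclonal, OT-I and vehicle cells and 8111, 7367 and 7398 genes, and no call of a member changed. Low read numbers limit Itgae (21 to 199 reads per library), Itga1 (12 to 524), Itgam (32 to 359) and Itgax (28 to 1688).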
